A study of Mus musculus with 6 samples.

Results

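The genes described here are the mouse Rab GTPases outside the Rab11 and Rab17 group, chosen by symbol as every gene named Rab with a number and at most 1 letter, plus Rasef, and without Rab11a, Rab11b, Rab17 and Rab25. The rule finds 54 of the 24214 RefSeq features in the tables. They were compared between 3 samples of 393P_ZEB1 and 3 of 393P_vector. 393P is an epithelial line from a murine lung adenocarcinoma, of C57BL/6 strain by the labels, and both groups are stable transfectants kept in the same serum-containing medium. 393P_vector carries the empty vector and 393P_ZEB1 a vector that expresses ZEB1, a transcription factor known for driving epithelial-to-mesenchymal transition (EMT). The species of the ZEB1 insert and its promoter are not given in the sources used here, each group is 1 transfected derivative of 1 line, and nothing says that the 3 samples of a group came from separate cultures, so p-values measure the spread between these samples. In a bulk sample, fewer cells with a transcript and less of it per cell cannot be told apart.

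Rab GTPases are small membrane-bound switches that give each transport step in the cell an address. Exchange factors load a Rab with GTP, the loaded Rab recruits effectors such as tethers, motors and sorting proteins to a vesicle, and GTPase-activating proteins switch it off, after which GDI extracts the prenylated Rab from the membrane. Different Rabs mark the endoplasmic reticulum and Golgi, early and late endosomes, secretory granules, lysosome-related organelles and the cilium, and closely related paralogs often share a compartment. The purpose of the study was to ask how ZEB1 alters vesicular traffic, and the comparison here shows which Rab transcripts differed in level.

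ZEB1 binds E-boxes, of which CAGGTG is a well-known form, so the RefSeq promoter windows of the members (build GRCm38.p6, 250 bases before to 50 after the annotated start) were searched for CAGGTG on both strands, which also finds CACCTG. A window was found for 44 of the 54 members, and Rab18, Rab26, Rab27b, Rab2a, Rab30, Rab36, Rab37, Rab38, Rab44 and Rab4a had no entry. Of the windows nearest to the counted start, 7 of 44 held the motif (15.9%), against 20.2% of all 32851 promoter windows. It was in 2 of the 9 matched members that rose, in 1 of the 6 that fell and in 3 of the 23 that did not pass the test. The windows of Rab23, Rasef and Rab13 are printed because they are the falling member with the motif, the member with the largest increase and a rising member without it. Rab23, which fell, held 2 matches, 207 and 19 bases before its start, a number reached by 2.88% of all windows. Rasef, which had the largest increase of any member, held 1 match 54 bases before the start of the counted transcript. That start is not the outermost one of the gene, which in RefSeq reaches to position 73791236, so the whole window lies inside the gene, its outer end 384 bases from the gene's. Rab13, which rose, held none in the window nearest its counted start, which also lies inside the RefSeq gene. This was so for 9 of the 44 windows. The matches are in capitals, and the sequences run 5′ to 3′ on the strand of the gene.
Rab23 promoter, chr1:33719646-33719945, plus strand: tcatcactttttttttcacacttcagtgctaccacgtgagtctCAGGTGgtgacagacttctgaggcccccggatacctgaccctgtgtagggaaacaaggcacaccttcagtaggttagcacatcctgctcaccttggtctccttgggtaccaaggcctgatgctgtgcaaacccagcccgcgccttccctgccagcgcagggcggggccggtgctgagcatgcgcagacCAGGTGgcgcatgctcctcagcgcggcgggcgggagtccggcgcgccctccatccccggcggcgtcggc
Rasef, window at the counted start inside the gene, chr4:73790553-73790852, minus strand: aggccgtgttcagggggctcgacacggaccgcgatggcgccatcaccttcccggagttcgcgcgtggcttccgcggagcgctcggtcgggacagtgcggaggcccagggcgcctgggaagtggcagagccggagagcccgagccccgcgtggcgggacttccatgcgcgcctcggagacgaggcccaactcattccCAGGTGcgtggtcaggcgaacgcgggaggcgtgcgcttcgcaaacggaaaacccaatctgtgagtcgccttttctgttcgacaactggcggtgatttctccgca
Rab13, window nearest the counted start inside the gene, chr3:90220534-90220833, plus strand: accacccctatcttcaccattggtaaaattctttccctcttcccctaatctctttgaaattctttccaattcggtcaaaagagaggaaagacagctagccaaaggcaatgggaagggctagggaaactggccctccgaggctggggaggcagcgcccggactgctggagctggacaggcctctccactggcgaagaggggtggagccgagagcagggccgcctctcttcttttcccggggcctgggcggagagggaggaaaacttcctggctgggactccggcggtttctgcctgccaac
A match describes the letters in the window and is no evidence of binding, and its absence says only that these letters are not in this window.

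Total counts were between 54442450 and 79158012 per sample, and 3 counts, used as the limit of what can be shown, corresponded to 0.0361 to 0.0561 CPM (counts scaled by edgeR's TMM library sizes). Zeb1 itself was at 21.2, 22.0 and 21.4 CPM in 393P_vector and 54.9, 48.9 and 51.3 CPM in 393P_ZEB1, which follows the labels. Its log2 fold change was 1.26. Zeb1 lies on chromosome 18, where the other tested genes had a median of 0.64, and subtracting it left 0.63. Whether the added reads came from the vector was not tested. Of the epithelial markers, 9 of 10 genes fell, with sums of 4871 to 5530 CPM in 393P_vector against 2755 to 3051 CPM in 393P_ZEB1. Of the mesenchymal markers, 7 of 7 genes rose, with sums of 7835 to 8673 CPM against 11086 to 12319 CPM. The mesenchymal sum was above the epithelial one in both groups. The summed level of 6 leukocyte genes was 2.75 to 4.89 CPM in 393P_vector and 1.76 to 2.15 CPM in 393P_ZEB1, and that of 4 endothelial genes was 2.26 to 2.46 against 0.630 to 0.868 CPM. Of the tested genes in these lists, Csf1r (0.860 to 0.241 CPM) and Kdr (1.91 to 0.330 CPM) fell. The part of such genes in the Rab results was not tested. The library of 393P_vector replicate 3 stood apart. It differed at least 2-fold from the other 393P_vector samples in 5.0% and 5.51% of genes, whereas the other pair differed at 0.0648%. For the members, results that rest on it are given with and without it.

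Changes were tested by edgeR's quasi-likelihood test with Benjamini-Hochberg adjustment over the 13892 genes that passed the filter on low counts, with an adjusted p below 0.05 as the threshold. Of the 54 Rab members, 46 passed that filter. Rab19, Rab26, Rab33a, Rab39, Rab3c, Rab40b, Rab44 and Rab9b did not, with 0 to 27 counts in any sample. In a fit without that filter, Rab19 was past the threshold as lower (adjusted p = 0.0125), from 6, 7 and 27 counts in 393P_vector and 2, 1 and 1 in 393P_ZEB1, and the other 7 were not. Among the 46, 13 rose (28.3%), against 18.3% of all tested genes, and 6 fell (13%), against 19.3%. The remaining 27 did not pass the test. Groups did not overlap for 26 members. In 17 of these all 393P_ZEB1 samples were above all 393P_vector samples (37.0%, background 26.3%), and in 9 they were below (19.6%, background 26.5%). The median log2 fold change was 0.13 over the members and -0.02 over all tested genes. These shares are descriptions of 46 genes, and their distance from the background was not tested. Without 393P_vector replicate 3 the counts were 20 rising and 8 falling, in a fit that also called more of all genes (26.2% higher and 26.8% lower). Rab2b, Rab6a, Rab14, Rab22a, Rab27b, Rab28 and Rab34 then passed as higher and Rab10, Rab40c and Rab42 as lower, while Rab39b was lost. On leaving out other single samples the counts were 8 to 10 rising and 3 to 6 falling. The calls of Rab1, Rab5c, Rab12, Rab24, Rab31, Rab32, Rab39b and Rab3d were lost in at least 1 of these 6 fits, and those of the 11 other members were not.

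**Figure D1:**
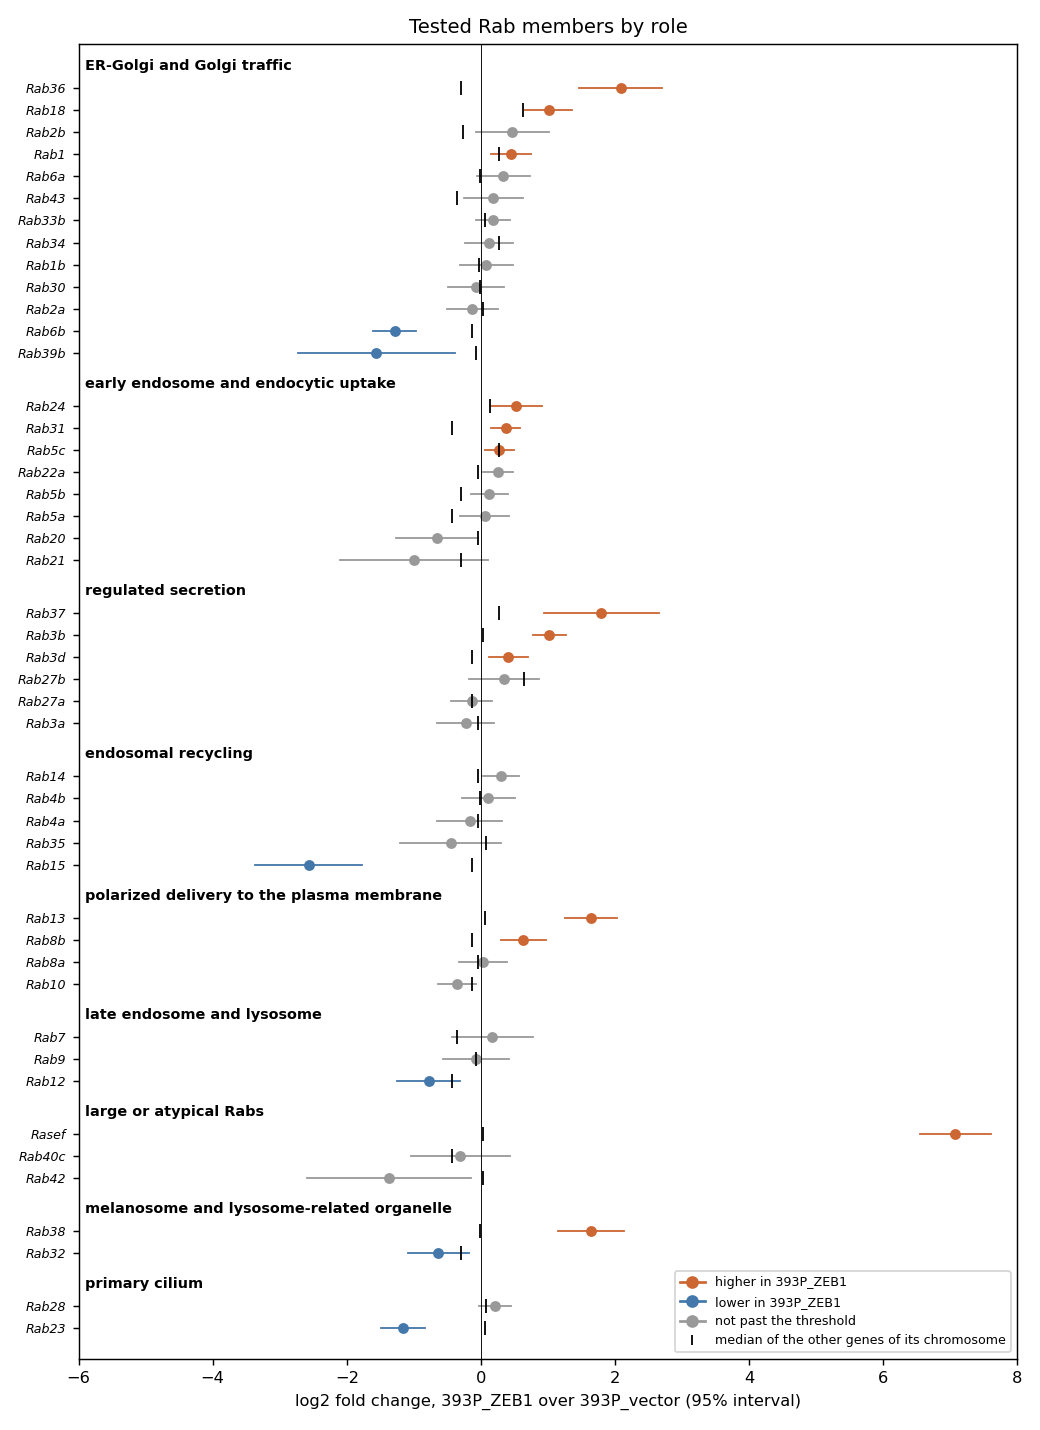
Log2 fold change (393P_ZEB1 over 393P_vector) with its 95% interval for the 46 tested Rab members, grouped by role, with orange for members that rose, blue for those that fell and grey for those not past the threshold; black ticks mark the median change of the other tested genes on the same chromosome. The 13 rising and 6 falling members are spread over the roles, and Rasef lies far to the right of the rest at 7.08.

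Most members were moderately abundant. The median level of the tested members was 20.7 CPM, close to the 23.9 CPM of all tested genes. Summed over the 54 members, Rab transcripts were at 2373 ± 35.5 CPM (SD, n = 3) in 393P_vector and 2767 ± 162 CPM (SD, n = 3) in 393P_ZEB1, a ratio of 1.17. By share of all counts the members took 0.232%, 0.230% and 0.253% in the 393P_vector samples and 0.290%, 0.273% and 0.263% in the 393P_ZEB1 samples, so the groups did not overlap. Of the difference of 395 CPM, Rab18 made up 99.0 CPM, Rab1 65.0 CPM, Rab31 55.2 CPM and Rab3b 42.9 CPM. In the other direction Rab10, which did not pass the test, contributed -57.2 CPM and Rab23 -20.7 CPM. Members with large fold changes added less, with 17.0 CPM from Rasef and 27.3 CPM from Rab13. By chromosome, the members on 18 made up 104 CPM of the difference and those on 11 made up 99.3 CPM. The tested genes of these chromosomes had median log2 fold changes of 0.64 and 0.27, and their part in the difference was not tested.

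**Figure D2:**
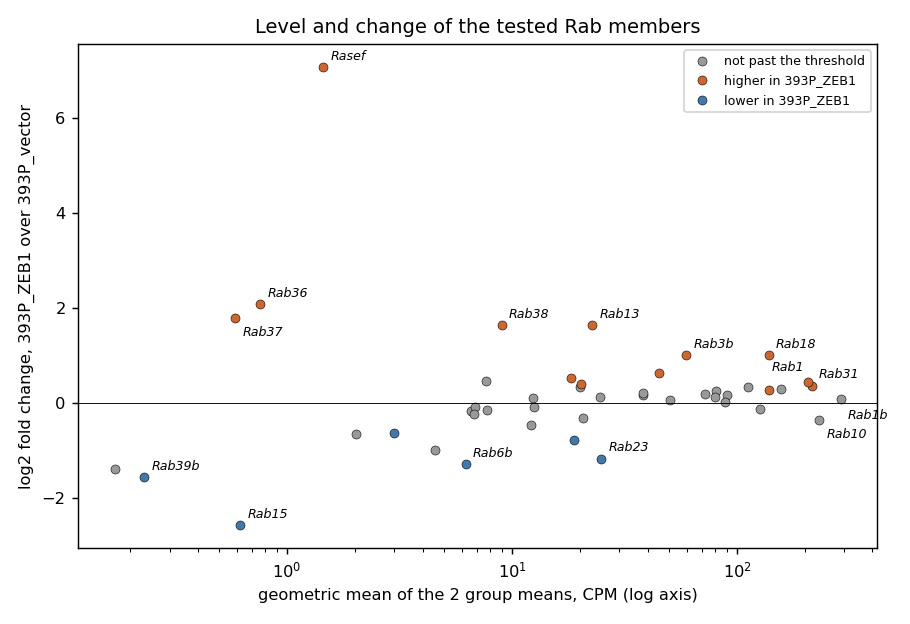
Level of each tested Rab member (geometric mean of the group means, CPM, log axis) against its log2 fold change, coloured by the test result as in the plot by role. Abundant members such as Rab1b, Rab10, Rab1 and Rab31 lie within 0.5 of 0 on the log2 scale, and members with changes above 2 on that scale, in either direction, had levels of a few CPM or less.

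Per kilobase of exon, Rab1b was the most abundant member, followed by Rab7 and Rab5c, in both groups. Rab1b, which acts with Rab1 in transport from the endoplasmic reticulum to the Golgi, was at 310, 323 and 207 CPM in 393P_vector and 306, 284 and 301 CPM in 393P_ZEB1. The low value belonged to 393P_vector replicate 3 and the groups overlapped, with a log2 fold change of 0.08 ± 0.17 (SE) and an adjusted p of 0.733. Per kilobase it was at 153 ± 34.7 and 162 ± 6.46 CPM (SD, n = 3 each). Rab7, the Rab of late endosomes and lysosomes, was at 93.9, 109 and 51.9 CPM in 393P_vector and 110, 80.8 and 95.9 CPM in 393P_ZEB1. Again 393P_vector replicate 3 was lowest and the groups overlapped (adjusted p = 0.643). Its per-kilobase level, 137 ± 47.6 against 154 ± 23.2 CPM, rests on a counted exon length of 619 bases, and the counted interval spans 28.7% of the RefSeq gene. Rab5c is described with the early endosome.

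Among the 16 Rabs of the endoplasmic reticulum and Golgi, 13 were tested, and 3 rose and 2 fell (23.1% and 15.4%, against 18.3% and 19.3% of all tested genes). The role groups are small, and the counts in those that follow are read against the same background. Rab36, a Golgi Rab that positions late endosomes and lysosomes (chr10:75037089-75054100), was at 0.406, 0.425 and 0.277 CPM in 393P_vector and 1.53, 1.30 and 1.83 CPM in 393P_ZEB1. Every 393P_ZEB1 sample was at least 3 times as high as the highest 393P_vector sample, and Rab36 rose by 2.09 ± 0.27 on the log2 scale (SE, adjusted p = 0.000652), from 23 to 25 counts per library to 72 to 112. Rab18, which works at the endoplasmic reticulum and on lipid droplets (chr18:6765205-6790231), was at 91.8, 84.3 and 116 CPM against 223, 181 and 186 CPM. The groups were well apart, and Rab18 rose by 1.01 ± 0.15 (adjusted p = 0.00154). The other tested genes of chromosome 18 had a median log2 fold change of 0.64, after whose subtraction 0.38 was left for Rab18, and what part the chromosome has in its change was not tested. Rab1, called Rab1a in RefSeq, rose by 0.45 ± 0.13 (adjusted p = 0.0263), from 176 ± 8.75 to 241 ± 35.1 CPM.

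The falling Golgi Rabs were Rab6b and Rab39b. Rab6b, the neuron-enriched paralog of the Golgi Rab6a (chr9:103112074-103185270), was at 10.0, 10.2 and 8.90 CPM in 393P_vector and 3.94, 4.18 and 3.82 CPM in 393P_ZEB1. Samples within each group were close together and the groups were far apart. It fell by 1.29 on the log2 scale (SE 0.14, adjusted p = 0.00027), while Rab6a, at 99.4 ± 20.6 and 125 ± 16.7 CPM, did not pass the test. Rab39b, a neuronal Rab of the early secretory and autophagic pathway (chrX:75572058-75578204), was at 0.230, 0.272 and 0.674 CPM in 393P_vector and 0.150, 0.144 and 0.115 CPM in 393P_ZEB1. The 393P_vector values were drawn up by replicate 3, with 56 counts where the other 2 libraries had 13 and 16. Its log2 fold change was -1.56 ± 0.50 (adjusted p = 0.0432), and without 393P_vector replicate 3 it was -0.88 with an adjusted p of 0.111. It also missed the threshold when any 1 of the 393P_ZEB1 samples was left out. The other tested members with Golgi roles, Rab2a, Rab2b, Rab30, Rab33b, Rab34 and Rab43, had log2 fold changes between -0.13 and 0.47 and did not pass the test. Rab2b lies partly opposite Tox4, which is transcribed at 84.0 and 70.9 CPM, and whether the counting used the strand is not stated.

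Of the 8 early endosome members, 3 rose and none fell by this test (37.5% rising, background 18.3%). All 3 calls, those of Rab5c, Rab24 and Rab31, were lost under the replicate block and in several fits that left out 1 sample. Rab5a, Rab5b and Rab5c are the core Rabs of endocytic uptake and early endosome fusion. Rab5a (chr17:53479234-53507678) was at 52.1, 48.0 and 47.5 CPM against 63.3, 47.3 and 42.9 CPM. Rab5b (chr10:128677183-128696268) was at 23.3, 22.2 and 25.1 CPM against 24.6, 28.5 and 24.1 CPM. Both overlapped between groups, with adjusted p-values of 0.803 and 0.445, and 95% intervals of the log2 fold change from -0.31 to 0.42 and from -0.15 to 0.41. Rab5c (chr11:100715266-100738130) was at 119, 127 and 131 CPM in 393P_vector and 154, 155 and 147 CPM in 393P_ZEB1. Its groups were separate, and it rose by 0.28 ± 0.09 (adjusted p = 0.0490). The call lies at the edge of the threshold. It was lost under the replicate block and on leaving out any 1 sample other than 393P_vector replicate 3, with adjusted p-values between 0.101 and 0.176. On chromosome 11 the other genes had a median of 0.26, almost the size of the change of Rab5c.

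Rab24, associated with autophagy, and Rab31, a Rab of traffic between the trans-Golgi and endosomes, also rose. Rab24 went from 15.3 ± 1.74 to 22.1 ± 3.92 CPM (log2 fold change 0.53 ± 0.16, adjusted p = 0.0375). Rab31 was at 191, 187 and 190 CPM in 393P_vector and at 260, 232 and 242 CPM in 393P_ZEB1. It rose by 0.37 ± 0.09 (adjusted p = 0.0174) on chromosome 17, where the median of the other genes was -0.43. Rab20, Rab21 and Rab22a, which also act early in uptake, did not pass the test. Rab21 had 11.95 CPM in 393P_vector replicate 3 and between 2.86 and 3.99 CPM in the 5 other libraries.

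In the recycling pathway, Rab15 fell and none of the other 4 members passed the test. Rab15, which slows exit from early and recycling endosomes (chr12:76797963-76822524), was at 1.57, 1.99 and 0.987 CPM in 393P_vector and 0.280, 0.198 and 0.278 CPM in 393P_ZEB1. The lowest 393P_vector sample was more than 3 times the highest 393P_ZEB1 sample. The log2 fold change of -2.57 ± 0.34 was the largest decrease of any member that passed the filter (adjusted p = 0.000827). It rests on 82 to 117 counts against 11 to 17. Over 10 reads lay on only 1, 1 and 2 of the 7 exons of Rab15 in 393P_vector, and on 1, 0 and 1 in 393P_ZEB1. Rab4a and Rab4b of fast recycling were at 6.92 ± 0.878 and 11.9 ± 1.46 CPM in 393P_vector and at 6.17 ± 1.43 and 12.8 ± 2.10 CPM in 393P_ZEB1. Rab14, between endosomes and Golgi, did not overlap between groups (131 to 148 CPM against 153 to 185 CPM), with an adjusted p of 0.0804. Rab35 had 22.2 CPM in 393P_vector replicate 3 and between 8.67 and 11.8 CPM elsewhere.

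On the late endosomal route, Rab12, which directs transferrin receptor to degradation, fell from 24.8 ± 7.18 to 14.4 ± 0.793 CPM (log2 fold change -0.78 ± 0.20, adjusted p = 0.0195), with 33.0 CPM in 393P_vector replicate 3. Without that library its log2 fold change was -0.52. The median of the other genes of its chromosome, 17, was -0.43. Rab9, which returns cargo from late endosomes to the Golgi, overlapped between groups.

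Polarized delivery to the plasma membrane had 2 rising members of 4, Rab13 and Rab8b. Both stand in the study's list of trafficking regulators, which was drawn from these samples, so their direction is not independent evidence; the same holds for Rab37 and Rab38. Rab13, a Rab of tight junctions and of the leading edge of migrating cells (chr3:90220817-90225963), was at 12.6, 14.8 and 11.2 CPM in 393P_vector and 43.2, 33.1 and 44.2 CPM in 393P_ZEB1. The groups were far apart, and leaving out each sample in turn gave log2 fold changes between 1.55 and 1.77. The counted interval spans 40.6% of the RefSeq gene. Rab8b, which acts with Rab8a in delivery to the surface and cilium (chr9:66843664-66919705), was at 34.3, 31.5 and 42.1 CPM against 60.9, 56.8 and 50.04 CPM. All 393P_ZEB1 samples were above all 393P_vector samples (log2 fold change 0.64 ± 0.14, adjusted p = 0.0109). Rab8a, at 87.7 ± 12.5 and 89.6 ± 13.3 CPM, overlapped between groups. Rab10, of basolateral delivery, was lower in every 393P_ZEB1 sample (189 to 219 CPM against 235 to 300 CPM), with an adjusted p of 0.0575.

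Among the Rabs of regulated secretion, 6 of 8 were tested, and 3 rose. Rab37, linked to exocytosis of secretory granules (chr11:115091431-115162240), was at 0.141, 0.425 and 0.373 CPM in 393P_vector and 0.935, 1.15 and 1.23 CPM in 393P_ZEB1. It remained low in all samples, with 8 to 31 against 50 to 75 counts, and rose by 1.80 ± 0.37 (adjusted p = 0.00716). Over 10 reads lay on 0, 1 and 1 of its 11 exons in 393P_vector, and on 1 in each 393P_ZEB1 sample. The antisense neighbour Cd300lf lies within its interval, at 0.0710 and 0.196 CPM. Rab3b, which docks secretory vesicles (chr4:108879070-108943324), was at 42.1, 40.3 and 43.1 CPM in 393P_vector and 79.5, 92.6 and 82.1 CPM in 393P_ZEB1. The 3 samples of 393P_vector were almost alike, and Rab3b rose by 1.02 ± 0.11 (adjusted p = 0.00022). Its paralog Rab3d rose by 0.41 ± 0.13 (adjusted p = 0.0350), while Rab3a, with a log2 fold change of -0.22 ± 0.18, did not pass the test. Rab27a and Rab27b of granule and exosome secretion did not pass it either. Rab27b had 14.4, 14.0 and 24.7 CPM in 393P_vector and 22.0 to 23.0 CPM in 393P_ZEB1, and without 393P_vector replicate 3 its log2 fold change was 0.66 (adjusted p = 0.000281). Like Rab18, it is on chromosome 18.

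Rab38 and Rab32 act together in the biogenesis of melanosomes and other lysosome-related organelles, such as the lamellar bodies of alveolar type II cells, and they moved in opposite directions. Rab38 (chr7:88430273-88491572) was at 4.12, 4.30 and 6.79 CPM in 393P_vector and 15.8, 16.6 and 15.3 CPM in 393P_ZEB1. Rab32 (chr10:10545039-10558207) was at 3.02, 3.67 and 4.49 CPM against 2.39, 2.57 and 2.23 CPM. Neither gene overlapped between the groups, and 393P_vector replicate 3 was highest of its group for both. Rab32 fell by 0.64 on the log2 scale (SE 0.20, adjusted p = 0.0361), on a chromosome whose other genes had a median of -0.29. Its call was lost on leaving out any sample except replicates 1 and 3 of 393P_vector.

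Of the ciliary Rabs, Rab23, a negative regulator of Hedgehog signalling (chr1:33719896-33742564), was at 33.7, 34.4 and 44.1 CPM in 393P_vector and 16.0, 17.6 and 16.4 CPM in 393P_ZEB1. The groups were far apart, and it fell by 1.17 on the log2 scale (SE 0.14, adjusted p = 0.000486). Rab28 was higher in every 393P_ZEB1 sample, at 39.5 to 42.5 CPM against 34.4 to 38.0 CPM, with an adjusted p of 0.151.

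Rasef, a large atypical Rab with EF-hand and coiled-coil regions (chr4:73714579-73790602), was at 0.124, 0.0850 and 0.156 CPM in 393P_vector and 18.1, 16.1 and 17.2 CPM in 393P_ZEB1. Its counts were 7, 5 and 13 against 966, 892 and 1052. The reads in 393P_ZEB1 were spread along the gene, with over 10 reads on 11, 13 and 15 of its 18 exons, and on 0 exons in each 393P_vector sample. The log2 fold change of 7.08 ± 0.23 has a 95% interval from 6.55 to 7.60, derived from the test statistic. With 5 to 13 counts per 393P_vector library this interval may be too narrow. Rab40c and Rab42 did not pass the test, and 393P_vector replicate 3 was lowest of its group for both.

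**Figure D3:**
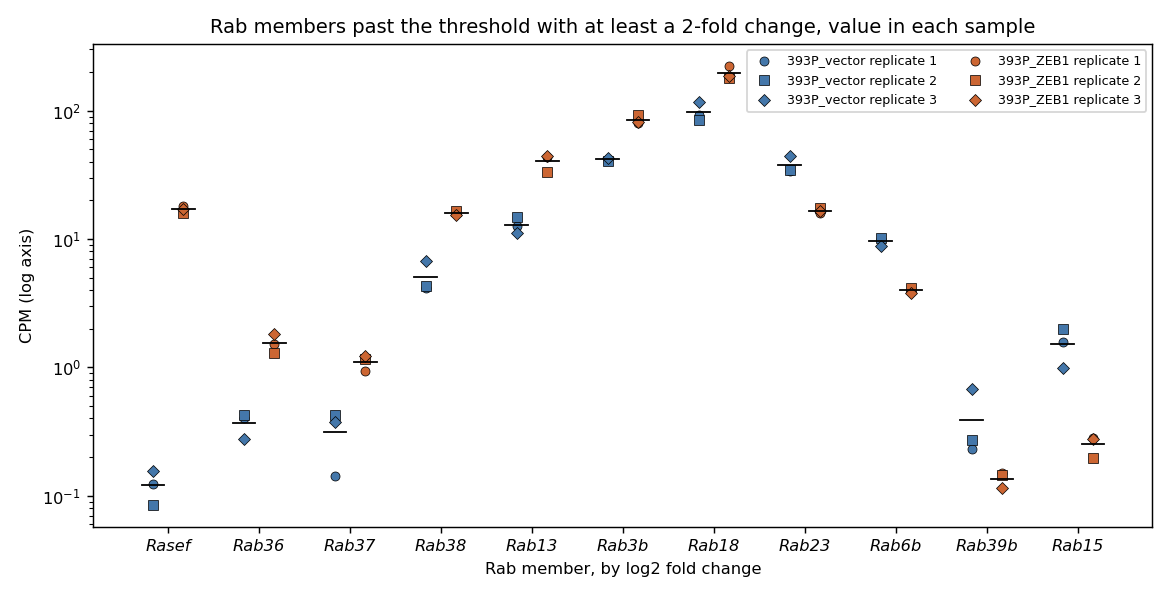
CPM (log axis) in each of the 6 samples for the 11 Rab members past the threshold with at least a 2-fold change, ordered by fold change; blue is 393P_vector, orange 393P_ZEB1, marker shapes give the replicate and black bars the group means. In all 11 the groups are separate, and the narrowest gap relative to the spread is that of Rab39b, from 0.150 to 0.230 CPM.

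Because paralogs can share a compartment, the ratio of levels per exon length was taken in each sample for 13 pairs of close relatives, chosen by family with the values above known. The ratio did not overlap between groups in 8 pairs. That is 61.5% of the pairs, where 52.8% of all tested genes taken singly did not overlap. Whether a ratio was higher or lower in 393P_ZEB1 depends on which gene of the pair is placed on top. Pairs within the Rab3 and Rab5 families share genes and are not independent of each other. In an exact two-sided permutation test each of the 8 pairs reached p = 0.1, the smallest that 3 samples against 3 allow. Adjusted over the 13 pairs this was 0.163, so none can pass 0.05. Rab38 exceeded Rab32 by 1.53 to 1.97 times in 393P_vector and 8.42 to 8.93 times in 393P_ZEB1. Rab3b exceeded Rab3a by 2.14 to 3.04 times and by 5.26 to 6.31 times. Rab6b was at 0.0506 to 0.0840 of Rab6a and then at 0.0192 to 0.0245. Rab8b relative to Rab8a was 0.143 to 0.242 and 0.246 to 0.297, ranges that nearly touch through 393P_vector replicate 3. The same library brings Rab27b over Rab27a close, at 1.23 in it against 1.24 to 1.32 in 393P_ZEB1. Without it these 8 pairs still did not overlap, nor did Rab1b to Rab1. The 3 ratios among the Rab5 paralogs overlapped, as did those of Rab4b to Rab4a and Rab1b to Rab1. Reads that fit more than 1 paralog may have been split or dropped in the counting, which is not described in the sources used here.

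**Figure D4:**
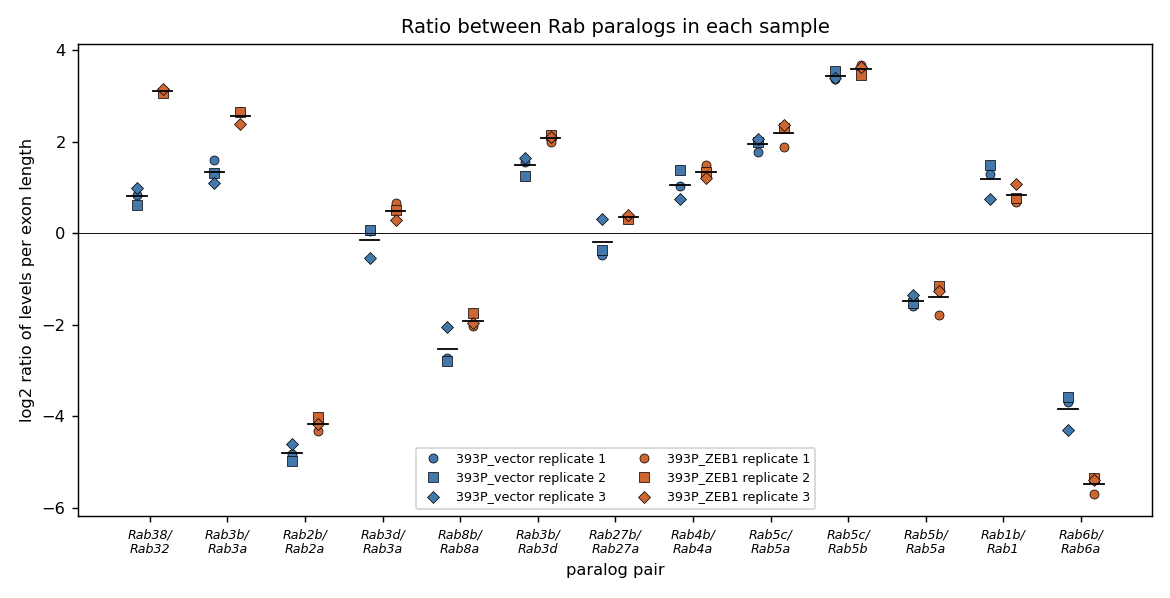
Log2 ratio of levels per exon length (first-named over second-named gene) in each sample for the 13 paralog pairs, ordered by the difference between group means; colours and shapes give group and replicate, black bars the means, and the line at 0 marks equal levels. Rab38/Rab32 shows the widest separation, and Rab3d/Rab3a and Rab27b/Rab27a have group means on opposite sides of 0; without 393P_vector replicate 3 the 393P_vector mean is 0.06 for Rab3d/Rab3a and -0.43 for Rab27b/Rab27a.

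Position on a chromosome was looked at because chromosome medians ranged from -0.43 on 17 to 0.64 on 18 among autosomes. Chromosome Y, with 6 tested genes and no tested member, had a median of -6.89. The cause of these differences between the derivatives was not tested. After subtracting the median of the other genes of its chromosome, all 19 members past the threshold kept their sign. The subtraction left 0.80 for Rab31 and 0.01 for Rab5c.

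The proteins that load, extract and read Rabs were described from 3 lists holding 70 genes in the tables, of which 67 were tested. Of these, 20 rose (29.9%) and 11 fell (16.4%), to be read against the background of 18.3% and 19.3% above. In the prenylation and GDI cycle 1 of 8 rose and 1 fell. Gdi2, which extracts Rabs from membranes, was at 294, 271 and 299 CPM in 393P_vector and 501, 485 and 434 CPM in 393P_ZEB1 (log2 fold change 0.72 ± 0.11, adjusted p = 0.00137). Rabggta, the alpha subunit of the transferase that prenylates Rabs, was at 38.7, 42.9 and 38.7 CPM against 14.7, 23.2 and 20.8 CPM (-1.03 ± 0.18, adjusted p = 0.0030). Both were clearly separate between groups, and the beta subunit Rabggtb, at 255 ± 58.1 and 173 ± 31.5 CPM, missed the threshold (adjusted p = 0.0568).

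Exchange factors outside the DENN family had 4 rising and 3 falling members of 17. Rab3il1, an activator of Rab3 and Rab8 proteins, was at 0.406, 0.476 and 0.481 CPM in 393P_vector and 1.05, 1.60 and 1.26 CPM in 393P_ZEB1 (1.51 ± 0.25, adjusted p = 0.00229). Rab3gap2, part of the Rab3GAP complex that activates Rab18, was at 101, 101 and 70.7 CPM against 164, 157 and 166 CPM (0.83 ± 0.15, adjusted p = 0.00395). Its partner Rab3gap1 rose too, by 0.48 ± 0.11 (adjusted p = 0.0137). For both genes 393P_vector replicate 3 was lowest of its group, at 70.7 CPM for Rab3gap2 and 80.7 CPM for Rab3gap1. Their changes without that library are not given here. Whether the changes of both subunits and of Rab18 are linked was not tested. In the other direction, Als2cl was at 126, 145 and 89.2 CPM against 52.5, 49.0 and 57.9 CPM (-1.18 ± 0.18, adjusted p = 0.00181). Rab3ip, the Rab8 exchange factor also called Rabin8, fell from 62.2 ± 11.7 to 44.8 ± 0.905 CPM (-0.47 ± 0.15, adjusted p = 0.0427). In Als2cl and Rab3ip too, 393P_vector replicate 3 was lowest of its group.

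Effectors had 15 rising and 7 falling members of the 42 tested. Lrrk2, a kinase of Rab8, Rab10 and other Rabs that was listed here with the effectors, was at 7.93, 7.55 and 6.27 CPM in 393P_vector and 62.4, 57.0 and 62.5 CPM in 393P_ZEB1. It rose by 3.07 ± 0.14 (adjusted p = 2.79e-06), the largest change in these lists. Sytl1, a Rab27 effector, was at 0.954, 1.16 and 0.409 CPM against 3.78, 3.47 and 3.54 CPM (2.12 ± 0.35, adjusted p = 0.00252). Exph5, another Rab27 effector, was at 6.54, 5.92 and 6.66 CPM against 2.11, 1.80 and 1.64 CPM (-1.78 ± 0.17, adjusted p = 0.000131). Unc13d, the granule-priming partner of Rab27, was at 147, 156 and 96.7 CPM against 49.2, 46.8 and 46.0 CPM (-1.49 ± 0.18, adjusted p = 0.000522). The groups were separate for all 4, which were named for having the largest changes past the threshold in each direction. Of the other tested Sytl genes, Sytl2 rose by 0.74 ± 0.10 (adjusted p = 0.000949) and Sytl5 did not pass the test. Mlph, Myrip and Rph3al did not pass it either.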

How the data were processed

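RNA of 6 samples of 393P cells, 3 of 393P_vector and 3 of 393P_ZEB1, had been sequenced on the SOLiD platform. For each sample the authors deposited the unnormalized count of reads per RefSeq feature, with GRCm38 coordinates and exon length. They also deposited an RPKM, the count divided by exon length and total reads, which served only as a check (its implied total was 99.1% to 99.3% of the summed counts). The aligner, the counter and its use of strand are not given in the sources used here.

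Counts were tested in R 4.3.3 with edgeR 4.0.16, by filterByExpr with a minimum count of 10, TMM, a robust quasi-likelihood fit with group as the only term, and Benjamini-Hochberg adjustment over all 13892 genes kept. CPM used TMM library sizes, and ± is SD for levels and SE for log2 fold changes. Paralog ratios were compared by exact two-sided permutation tests in SciPy 1.17.1. Promoters came from RefSeq GRCm38.p6. The fit was checked on simulated counts before use. These had the same dispersion for all genes, no outlying library and no shifts of whole chromosomes, so the check does not cover such features of the data.

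The members and lists were chosen with earlier results of these data known. Values per sample are given for members past the threshold with a log2 fold change of at least 1 either way, the 3 most abundant per exon length, Rab5a, Rab5b, Rab5c, Rab8b, Rab13, Rab37 and Rab38. For the machinery lists, the 2 genes with the largest changes past the threshold in each direction are named; other genes with values were added after these were seen. Protein sequences were not analysed here. Alternatives were DESeq2 size factors, the Wald test of DESeq2 1.42.0, other filters, the replicate block, leaving out each sample, voom with sample weights in limma 3.58.1, a threshold of 0.01, testing against a 1.5-fold change, and subtraction of chromosome medians.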

Additional observations from a re-analysis of the deposited data

How the results depend on the processing

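The counts of Rab members stood at 13 rising and 6 falling and those of the machinery lists at 20 and 11. Leaving out each sample in turn gave 8 to 20 rising and 3 to 8 falling members, and 15 to 25 and 7 to 19 machinery genes. The upper ends came without 393P_vector replicate 3. limma with voom and sample weights, which gave that library a weight of 0.111, called 20 and 9 members and 25 and 20 machinery genes, and 28.6% of all genes as higher and 29.5% as lower. A threshold of 0.01 left 7 and 3 members and 13 and 7 machinery genes, and testing against a 1.5-fold change left 7 and 3 members and 8 and 5 machinery genes. DESeq2's size factors, the DESeq2 Wald test and both other filters gave 10 to 13 rising and 5 to 7 falling members. The subtraction of chromosome medians kept the p-values of the fit, so it could change a call only through the sign and says nothing on whether the remainder differs from 0.

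The replicate block gave 9 rising and 4 falling members and lost the calls of Rab24, Rab31, Rab32, Rab39b, Rab3d and Rab5c. Deviations of equally numbered samples from their group means correlated at 0.28, -0.21 and -0.04, against -0.18 to 0.22 for unequal numbers. With 3 samples per group the deviations constrain each other, so these correlations cannot show or exclude a pairing.

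Sign changes occurred only in members that did not pass the test. With limma the log2 fold change was -0.0833 for Rab1b, 0.0743 for Rab30, 0.0977 for Rab35, -0.0773 for Rab5a, -0.0949 for Rab7, -0.15 for Rab8a and 0.19 for Rab9. After subtraction of the chromosome median it was 0.0017 for Rab27a, -0.30 for Rab27b, -0.14 for Rab34 and 0.12 for Rab40c. Over the fits that leave out 1 sample the range was -0.25 to 0.0345 for Rab2a, -0.68 to 0.0341 for Rab35, -0.0146 to 0.30 for Rab43, -0.0873 to 0.39 for Rab7, -0.21 to 0.0278 for Rab30, -0.0921 to 0.11 for Rab8a, -0.26 to 0.0193 for Rab4a, -0.12 to 0.18 for Rab5a, -0.0932 to 0.20 for Rab1b and -0.18 to 0.16 for Rab9. The cause of these changes was not tested. Depth limits the 8 members at 0 to 27 counts, which the filter removed.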

Other observations

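Rab-like genes and Rab7l1, whose symbols fall outside the rule, were also looked at, after their values were known. None of 6 passed edgeR's quasi-likelihood test. Rab7l1, a relative of Rab32 and Rab38, was at 5.19, 5.01 and 5.06 CPM in 393P_vector and 5.83, 5.96 and 6.29 CPM in 393P_ZEB1. All 393P_ZEB1 samples were higher, with a log2 fold change of 0.24 ± 0.13 and an adjusted p of 0.191. Rabl3 had the lowest adjusted p of the 6, at 0.0784, with 12.5 ± 1.38 against 16.3 ± 1.97 CPM. Ift27 and Rabl2, which act in ciliary transport, were at 13.3 ± 1.56 and 4.93 ± 0.538 CPM in 393P_vector and at 10.5 ± 1.87 and 4.06 ± 0.240 CPM in 393P_ZEB1. Both lie on chromosome 15, where the median log2 fold change was -0.33, and theirs were -0.35 and -0.28. Rabl6 had 137 CPM in 393P_vector replicate 3, as in all 393P_ZEB1 samples (135 to 138 CPM), and 175 to 176 CPM in the other 2 libraries.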
